A study of Mus musculus with 16 samples.

Results

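The genes described here encode ligands of the epidermal growth factor receptor (Areg, Ereg, Hbegf, Tgfa and Epgn), the receptor itself (Egfr) and feedback genes of the MAPK pathway (Spry2, Spry4, Etv5 and Dusp6). They were taken by symbol from the feature lists of 2 single-cell RNA libraries, and they are 10 of 31053 genes. The libraries came from organoids, epithelial cultures grown from stem cells, of AOM/DSS tumours, a mouse model in which a carcinogen and an irritant of the colon produce colon tumours. The knockout organoids carried KMT9ko/ko and are labelled plus TAM, and the control organoids carried KMT9wt/wt and are labelled minus TAM. Both groups are AOM/DSS tumour organoids at passage 14, and each has 8 records that are parts of 1 matrix. KMT9 is a histone methyltransferase, a heterodimer whose catalytic subunit is the product of N6amt1.

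Whether separate cultures or clones stand behind the records, how many mice they came from and which promoter drives a recombinase are not given in the sources used here. What TAM stands for is left unsaid by the labels, and its effect and that of the knockout cannot be told apart. With 1 library per group there is no test across replicates, so every difference below describes these 2 libraries. All intervals are exact 95% intervals for counting error only.

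Ligands of the EGF family are made as membrane proteins, are released from the cell surface by ADAM proteases and bind EGFR, a receptor tyrosine kinase. The active receptor signals through RAS, RAF, MEK and ERK, and ERK activity raises the transcription of genes that dampen the same route. Sprouty proteins such as SPRY2 and SPRY4 hold back signalling between the receptor and RAF, DUSP6 removes phosphate from ERK in the cytoplasm, and ETV5 is an ETS transcription factor whose gene is a common readout of ERK activity. In intestinal epithelium, EGF signalling sustains stem cells and regrowth after injury, and organoid media usually supply EGF.

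The sequences upstream of Areg, Egfr and Spry2 are shown because these genes gave the ligand with the lower level, the receptor and a feedback gene with the higher level in the knockout library. Each is the 250 bases before the RefSeq start site in GRCm38.p6, 5′ to 3′ on the strand of the gene. They lie at chr5:91139349-91139598 on the plus strand for Areg, at chr11:16751953-16752202 on the plus strand for Egfr and at chr14:105896820-105897069 on the minus strand for Spry2. Capitals mark matches to any of 4 motifs searched on both strands: the cyclic AMP response element (CRE) TGACGTCA, the ETS core CCGGAA, the AP-1 site TGANTCA and the TATA box TATAAA.
Areg: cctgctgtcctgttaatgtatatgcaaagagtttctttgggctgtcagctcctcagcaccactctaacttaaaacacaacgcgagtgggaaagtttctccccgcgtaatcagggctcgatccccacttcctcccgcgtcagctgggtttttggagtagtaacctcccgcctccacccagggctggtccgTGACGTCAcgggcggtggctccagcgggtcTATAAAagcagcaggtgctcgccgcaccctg
Egfr: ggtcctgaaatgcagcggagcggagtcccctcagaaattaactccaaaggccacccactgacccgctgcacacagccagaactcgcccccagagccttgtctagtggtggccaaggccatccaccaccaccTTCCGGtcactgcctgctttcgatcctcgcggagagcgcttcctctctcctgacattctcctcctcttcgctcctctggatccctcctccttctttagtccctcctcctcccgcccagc
Spry2: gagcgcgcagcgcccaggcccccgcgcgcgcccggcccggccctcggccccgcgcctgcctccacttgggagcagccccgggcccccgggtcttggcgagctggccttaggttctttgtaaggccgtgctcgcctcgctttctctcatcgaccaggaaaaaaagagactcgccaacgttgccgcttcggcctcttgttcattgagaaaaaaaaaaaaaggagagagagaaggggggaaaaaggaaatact
Areg held a CRE whose first base was at position -61 and a TATA box at -31, counted from the start site. Egfr held an ETS core at -119 on the opposite strand. For Spry2 the ETS core of the RefSeq window lay at position 34 after the start site, outside the bases printed. RefSeq had windows for 7 of the 10 genes (8 windows of 300 bases, 250 before and 50 after the start, of which Etv5 had 2), and the windows of Tgfa, Dusp6 and Etv5 held no match to the 4 motifs. Of all 32851 windows in the table, 1.79% held the CRE, 14.9% the ETS core, 7.81% the AP-1 site and 13.6% the TATA box. A match is a string of letters and not a measured binding site.

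The knockout library had 1481 cells after filtering with 37358097 UMIs (unique molecular identifiers, counted molecules), and the control library had 2629 cells with 68605296 UMIs. Median depth was 24184 UMIs per knockout cell and 24603 UMIs per control cell. N6amt1, the targeted gene, had a level of 6.13 CPM (counts per 1000000 UMIs) in knockout cells and 34.1 CPM in control cells, a log2 ratio of -2.47 (interval -2.68 to -2.28). Epithelial markers summed to 13945 CPM in knockout and 12482 CPM in control cells with none of 10 at 0, whereas fibroblast markers summed to 1.87 and 0.977 CPM with 7 and 6 of 9 at 0. Immune markers summed to 14.7 CPM in the knockout and 10.5 CPM in the control library, with 5 and 4 of 10 at 0. The 2 matrices shared 498 barcodes, carried by 324 kept knockout cells (21.9%) and 167 kept control cells (6.35%). In 318 of these knockout cells and 158 of these control cells the copy in the other matrix had fewer UMIs. Results are therefore also given without every cell of a shared barcode.

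Among the ligands, Areg was lower in the knockout library, while Hbegf and Tgfa stood above their control levels (plot of levels by library). Receptor and feedback genes were higher, with log2 ratios above 1 for Egfr, Spry2 and Etv5, whereas Dusp6 differed little. A gene was called measured at 10 CPM or more in at least 1 library, which held for 7 of the 10 genes. Of these, Tgfa, Egfr, Spry2 and Etv5 had a level at least 1.5-fold higher in knockout cells, Areg was lower by that size, and Hbegf and Dusp6 were neither. The same sizes were reached upward by 8.06% and downward by 10.7% of the 7912 genes measured. The median log2 ratio was 0.48 over the 3 measured ligands and 1.24 over the 3 measured feedback genes, beside -0.06 over all measured genes. With 3 genes each, these medians are the values of Hbegf and of Spry2. Areg, the ligand with the highest level in both libraries, went the other way (-0.86).

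**Figure D1:**
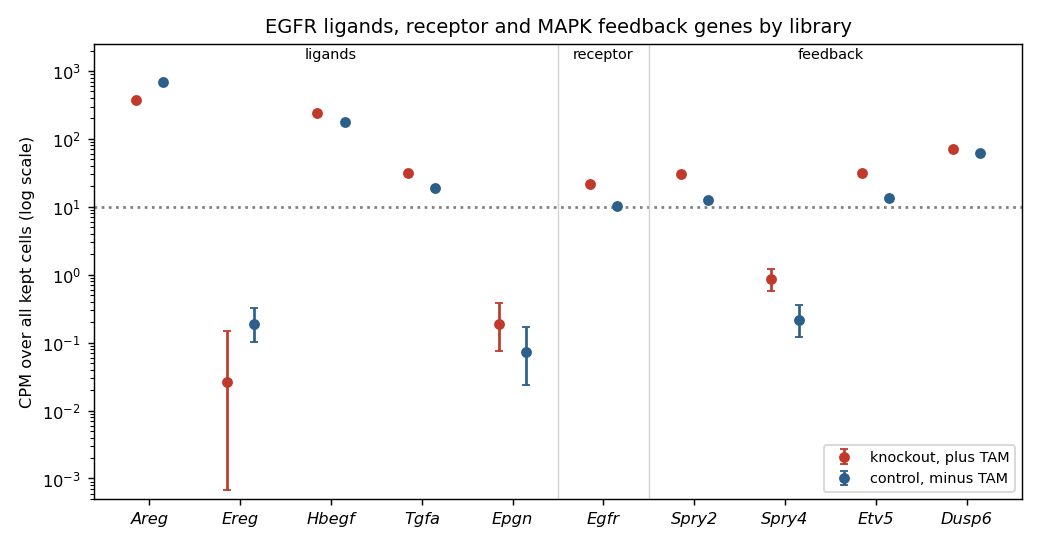
Levels of the 10 genes in CPM (log axis) over all kept cells of the knockout (red) and control (blue) library, with exact 95% Poisson intervals that are smaller than the point for most genes. The dotted line is the minimum of 10 CPM. Areg is the only measured gene with a lower point in the knockout library, and Ereg, Epgn and Spry4 lie below the line in both libraries.

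Areg (ENSMUSG00000029378, 5:91139599-91148432, plus strand, mm10) encodes amphiregulin, a low-affinity EGFR ligand. It stood at 373 CPM in the knockout library (13928 UMIs) and 679 CPM in the control library (46565 UMIs). Its level was thus 1.82-fold lower in knockout cells, with a log2 ratio of -0.86 (interval -0.89 to -0.84). Without shared barcodes the levels were 341 and 659 CPM and the log2 ratio -0.95. When each cell was thinned to 5000 UMIs, 46.8% of 1387 knockout cells (interval 44.1 to 49.5) and 66.5% of 2487 control cells (64.6 to 68.4) held an Areg UMI. Thinning left out 94 knockout and 142 control cells, and at full depth the shares were 71.9% and 87.4%. No cell type known to lack these genes stood out in the libraries, so background was not measured. The lowest shares among clusters are given further on, but they can hold real expression. The 10% of thinned cells with the most Areg held 57.2% of its UMIs in the knockout and 42.2% in the control library. The mean was 1.73 Areg UMIs per thinned knockout cell and 3.17 per thinned control cell. A lower mean by itself raises the share of the top cells, so these shares alone do not show a narrower spread.

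Hbegf (ENSMUSG00000024486, 18:36504927-36515805, minus strand) encodes heparin-binding EGF-like growth factor, also known as the diphtheria toxin receptor in humans. It stood at 244 CPM in the knockout and 175 CPM in the control library, a log2 ratio of 0.48 (interval 0.44 to 0.52) and 1.39-fold higher. Without shared barcodes its levels were 240.3 and 179.8 CPM. A Hbegf UMI was held by 59.0% of thinned knockout cells and 48.8% of thinned control cells.

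Tgfa (ENSMUSG00000029999, 6:86195223-86275719, plus strand) encodes transforming growth factor alpha, a high-affinity EGFR ligand. Its level was 31.2 CPM in the knockout and 18.9 CPM in the control library, 1.65-fold higher with a log2 ratio of 0.72 (interval 0.61 to 0.84). Without shared barcodes its levels were 30.1 and 19.1 CPM (log2 ratio 0.65). Tgfa overlaps the exons of Gm43917 on the opposite strand, and no source used here says whether reads were counted by strand, so its counts are uncertain to that extent.

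Ereg (ENSMUSG00000029377, 5:91074622-91093646, plus strand) and Epgn (ENSMUSG00000035020, 5:91027464-91035215, plus strand) encode epiregulin and epigen and lie beside Areg on chromosome 5. Ereg had 1 UMI in the knockout and 13 UMIs in the control library. This gives a log2 ratio of -2.82 whose interval runs from -8.23 to -0.09, and without shared barcodes 1 and 9 UMIs remained, with an interval that includes 0 (-7.46 to 0.85). Ereg overlaps Gm19610 on the opposite strand. Epgn had 7 UMIs in the knockout and 5 UMIs in the control library, and its ratio interval also includes 0 (-0.51 to 3.36). Of the 3 ligand genes on this stretch of chromosome 5, Areg alone was measured.

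Egfr (ENSMUSG00000020122, 11:16752203-16918158, plus strand) stood at 21.4 CPM in the knockout library (801 UMIs) and 10.2 CPM in the control library (698 UMIs). Its level was 2.11-fold higher in knockout cells, with a log2 ratio of 1.08 (interval 0.93 to 1.22). Without shared barcodes the levels were 18.7 and 10.1 CPM, a log2 ratio of 0.88. After thinning, 10.4% of knockout cells and 4.62% of control cells held an Egfr UMI. At these levels most thinned cells of both libraries had no Egfr UMI, which does not mean that they lack the receptor.

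Spry2 (ENSMUSG00000022114, 14:105891947-105896819, minus strand) stood at 30.1 CPM in the knockout and 12.7 CPM in the control library, 2.37-fold higher with a log2 ratio of 1.24 (interval 1.11 to 1.37). Without shared barcodes its levels were 30.6 and 13.2 CPM, close to those over all cells. A Spry2 UMI was found in 11.7% of thinned knockout cells and 5.43% of thinned control cells.

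Etv5 (ENSMUSG00000013089, 16:22381309-22439719, minus strand) stood at 31.8 CPM in the knockout and 13.3 CPM in the control library, 2.39-fold higher with a log2 ratio of 1.26 (interval 1.13 to 1.39). Without shared barcodes the levels were 27.0 and 13.6 CPM, which lowered the log2 ratio to 0.99. Thinned cells with an Etv5 UMI made up 12.5% of the knockout and 6.23% of the control library.

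Spry4 (ENSMUSG00000024427, 18:38586247-38601415, minus strand) had 32 UMIs in the knockout and 15 UMIs in the control library. It was below the minimum in both, at 0.857 and 0.219 CPM, with a log2 ratio of 1.97 and a wide interval of 1.04 to 2.96. Without shared barcodes 15 and 13 UMIs remained and the log2 ratio was 1.37 (interval 0.20 to 2.56).

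Dusp6 (ENSMUSG00000019960, 10:99263231-99267489, plus strand) stood at 70.8 CPM in the knockout and 61.8 CPM in the control library. The log2 ratio of 0.20 (interval 0.13 to 0.27) was the smallest in size among the 7 measured genes. Without shared barcodes the levels were 63.4 and 62.2 CPM, and the interval of the ratio included 0 (-0.06 to 0.11). Thinned cells with a Dusp6 UMI made up 25.3% of the knockout and 22.8% of the control library.

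To describe the genes across cell states, cells were clustered without the 10 genes and without the 67 other pathway genes described further on. The clusters are called here by leading genes. They are a Reg4 cluster (also Tmed6 and Sectm1b), a Timp3 cluster (Fgfbp1 and Krt4), a cycling-like cluster (Hmmr, Nusap1 and Esco2), a squamous-like Asprv1 cluster (Spp1 and Ccl2), a Slc16a3 cluster (Cited1 and Cyp1a1), a Cxcl14 cluster (Cadps and Gm29865), a Prss56 cluster (Igf1 and Pnliprp1), a colonocyte-like Clca4a cluster (Muc3 and 2010109I03Rik) and a colonocyte-like Fabp2 cluster (Cyp2d34 and Cldn15). A further cluster, led by Gm26870, Gm26917 and Gm42418, had a median of 3682 UMIs per cell and stays unnamed as the low-depth cluster. The cycling-like name rests on 14 of 14 cycling markers, the squamous-like name on 5 of 13 markers, and the colonocyte-like names on 10 and 5 of 14 markers. The Clca4a cluster also had 6 of 12 markers of a fetal-like and revival class and 2 of 13 squamous-like markers raised. The Fabp2 cluster had 1 of these 12, so the colonocyte-like name covers only part of the Clca4a profile.

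Most clusters belonged mainly to 1 library, and such a cluster may reflect the library and not a cell state. The Asprv1 cluster had 430 knockout and 55 control cells, the Cxcl14 cluster 310 and 66, the Prss56 cluster 184 and 98, and the Clca4a cluster 192 and 35. The cycling-like cluster had 128 knockout and 460 control cells, the Slc16a3 cluster 95 and 324, the Reg4 cluster 24 and 623, the Timp3 cluster 11 and 597, the Fabp2 cluster 19 and 185, and the low-depth cluster 61 and 155. Cells of smaller clusters are not described. A library difference can therefore come from the numbers of cells in each state or from the RNA per cell within a state, and over whole libraries these cannot be told apart. Ratios within clusters are given for the 6 clusters with 50 or more cells in each library, and levels alone for the rest. Orders and ranges of levels across clusters use only clusters with 50 or more cells in the library concerned, 7 in the knockout and 9 in the control library.

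Among clusters with 50 or more thinned cells, the lowest share of cells with a Hbegf UMI was 50% in the knockout (cycling-like cluster) and 29.4% in the control library (low-depth cluster). For Egfr it was 6.17% in the knockout (Cxcl14) and 1.63% in the control (Fabp2). For Spry2 it was 3.30% in the knockout (Slc16a3) and 1.85% in the control (Asprv1), and for Dusp6 it was 8.79% (Slc16a3) and 9.26% (Asprv1). The control Spry2 share was 1 of 54 cells (interval 0.05 to 9.89) and the control Dusp6 share 5 of 54 (3.08 to 20.3). Spry2 stood at 29.9 CPM in control cells of the Asprv1 cluster, above the 12.7 CPM of the whole control library. Its share there is therefore no guide to background. A whole-library share averages over clusters, so it lies above the lowest of them almost by construction, and no comparison with background was made.

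**Figure D2:**
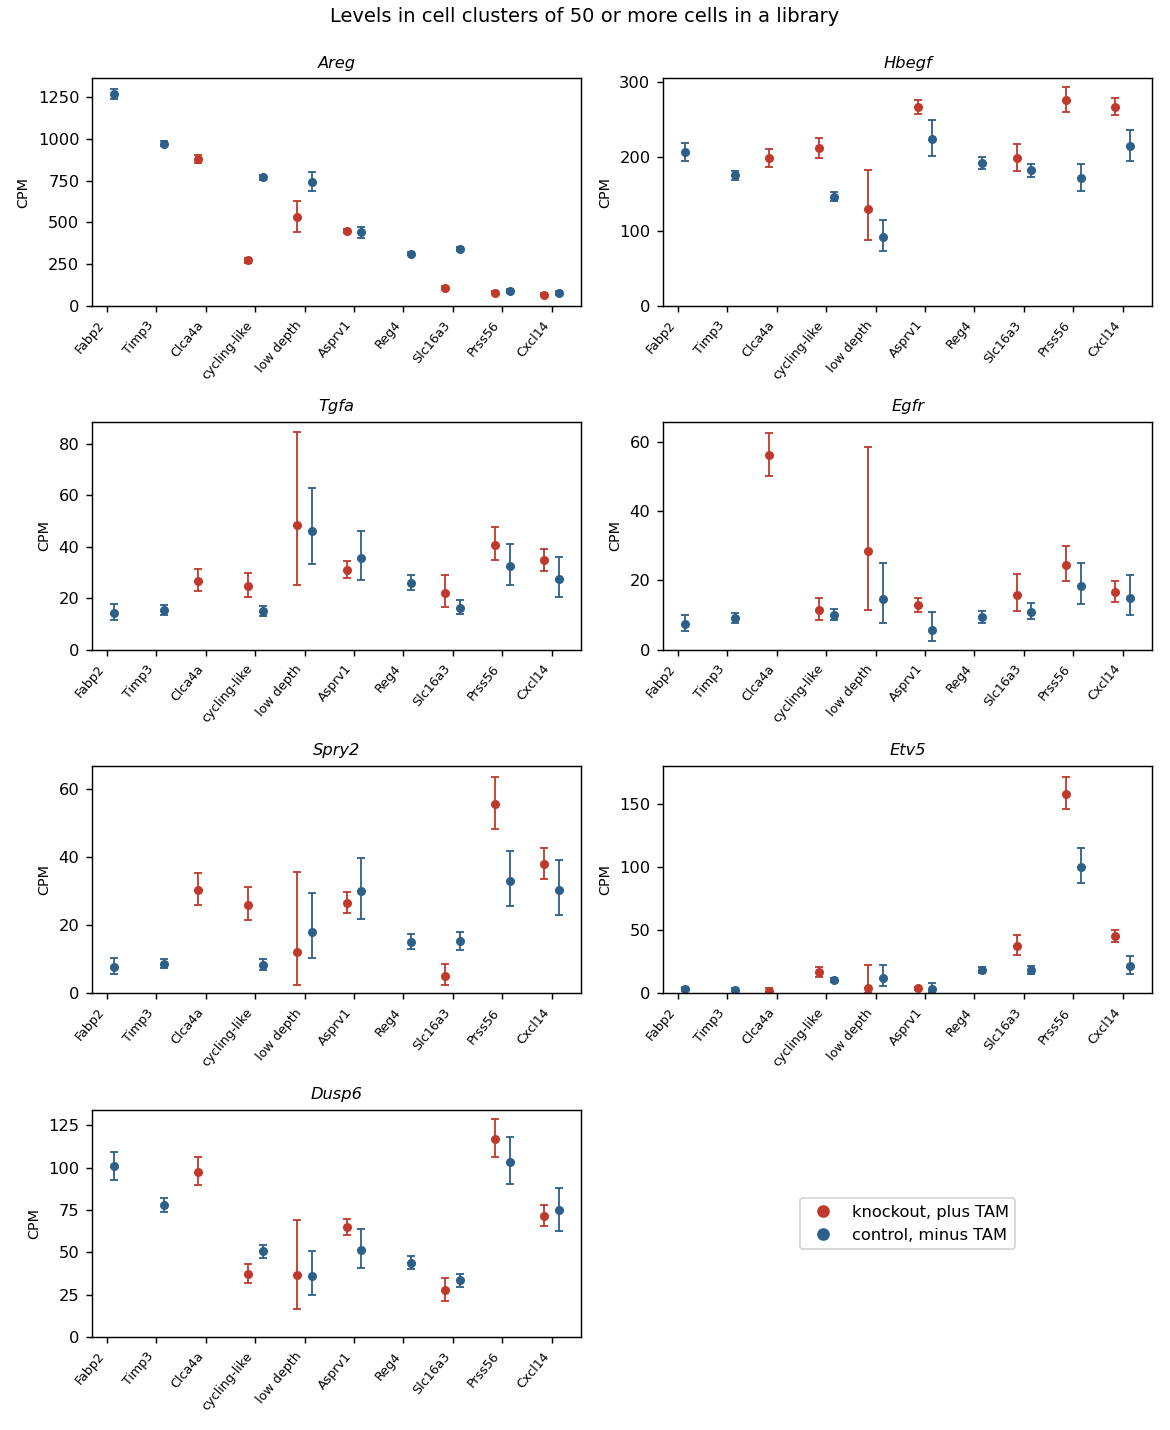
CPM of the 7 measured genes in clusters with 50 or more cells in a library, knockout in red and control in blue, with exact 95% Poisson intervals. Areg is at its lowest in the Prss56 and Cxcl14 clusters of both libraries, and Etv5 is at its highest in the Prss56 cluster of both, at 158 CPM in knockout and 100.2 CPM in control cells.

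Among clusters with 50 or more cells in a library, Areg had a wide range. In the knockout library its lowest levels were 67.5 CPM in the Cxcl14 cluster and 78.6 CPM in the Prss56 cluster, whose intervals overlap. They were followed by 105 CPM in the Slc16a3 cluster, 273 CPM in the cycling-like cluster, 448 CPM in the Asprv1 cluster and 530.0 CPM in the low-depth cluster. The intervals of these last 2 clusters overlap, and the highest level in these clusters, 880 CPM, was in the Clca4a cluster. The 19 knockout cells of the Fabp2 cluster and the 11 of the Timp3 cluster, below that size, had 1376 and 1243 CPM. In the control library the lowest levels were 74.7 CPM in the Cxcl14 cluster and 86.1 CPM in the Prss56 cluster, again with overlapping intervals. Levels of 312 CPM in the Reg4 cluster, 338 CPM in the Slc16a3 cluster and 440.0 CPM in the Asprv1 cluster followed. The low-depth cluster at 745 CPM and the cycling-like cluster at 770.0 CPM did not differ beyond their intervals, and the Timp3 cluster at 971 CPM and the Fabp2 cluster at 1271 CPM were the highest. Among clusters of 50 or more cells the highest level was 13.0 times the lowest in knockout and 17.0 times the lowest in control cells.

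Between the libraries, Areg was lower in knockout cells of the cycling-like cluster, at 273 against 770.0 CPM in control cells, a log2 ratio of -1.5 (interval -1.59 to -1.41). It was also lower in knockout cells of the Slc16a3 cluster, at 105 against 338 CPM, a log2 ratio of -1.69 (interval -1.88 to -1.5). Without shared barcodes these ratios were -1.25 and -1.78. In the Asprv1, Cxcl14 and Prss56 clusters the intervals of the log2 ratio included 0, with ratios of 0.02 (-0.09 to 0.14), -0.15 (-0.42 to 0.13) and -0.13 (-0.40 to 0.14). In the Prss56 cluster without shared barcodes the ratio was -0.39 (-0.72 to -0.06). The low-depth cluster stood between, at -0.49 (-0.77 to -0.22). The share of thinned cells with an Areg UMI in the cycling-like cluster was 59.4% in knockout and 78.0% in control cells, and in the Slc16a3 cluster it was 34.1% and 52.7%. In the Prss56 cluster, which had the lowest share in both libraries, it was 16.3% in knockout and 24.5% in control cells.

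Areg molecules came from different clusters in the libraries. Of the knockout Areg UMIs, 38.1% were in the Asprv1 cluster and 35.5% in the Clca4a cluster. Of the control Areg UMIs, 38.9% were in the Timp3 cluster, 24.4% in the cycling-like cluster and 15.5% in the Fabp2 cluster. In the Clca4a cluster 47.4% of knockout cells and 25.7% of control cells had a shared barcode, and the level of Areg there was 871 CPM in knockout and 929 CPM in control cells without them, close to 880 and 953 CPM with them.

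Hbegf and Tgfa varied less across states. Hbegf ranged 2.14-fold from its lowest to its highest cluster in the knockout and 2.43-fold in the control library. Its log2 ratio was above 0 in 6 of 6 compared clusters, between 0.13 in the Slc16a3 cluster and 0.69 in the Prss56 cluster. In the Slc16a3 cluster (-0.02 to 0.28) and the low-depth cluster (-0.15 to 1.09) the interval included 0. The Prss56 cluster had 277 CPM of Hbegf in knockout and 172 CPM in control cells, the only cluster where the difference reached 1.5-fold, and without shared barcodes the levels there were 231 and 169.6 CPM, a log2 ratio of 0.44. Tgfa was higher by 1.5-fold or more only in the cycling-like cluster, at 24.8 CPM in knockout and 14.9 CPM in control cells, a log2 ratio of 0.74 (interval 0.39 to 1.07). In the other 5 clusters the intervals of its ratio included 0.

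Egfr had its highest knockout level in the Clca4a cluster, which held 39.3% of the knockout Egfr UMIs. It stood there at 56.0 CPM in 192 knockout cells and 27.3 CPM in the 35 control cells, with intervals that do not overlap. Without shared barcodes these levels were 55.7 CPM (46.2 to 66.5) in knockout and 22.8 CPM (14.4 to 34.2) in control cells. Across the other knockout clusters of 50 or more cells Egfr lay between 11.4 CPM in the cycling-like and 28.3 CPM in the low-depth cluster. In the 6 clusters compared, the log2 ratio was above 0 each time, but the interval excluded 0 only in the Asprv1 cluster, at 12.7 CPM in knockout and 5.72 CPM in control cells (1.15, interval 0.19 to 2.31, from 9 control UMIs). Without shared barcodes it also excluded 0 in the Prss56 cluster, at 28.4 CPM in knockout and 18.3 CPM in control cells (0.64, interval 0.02 to 1.27). Without both colonocyte-like clusters the log2 ratio of Egfr over the libraries was 0.59, beside 1.08 with them. In the same libraries colonocyte markers summed to 646 CPM in the knockout and 303 CPM in the control.

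Over clusters of 50 or more cells in a library, Etv5 had the widest range of the measured genes, with its highest level 68.2 times the lowest in the knockout and 32.8 times the lowest in the control library. It was lowest there in the Clca4a cluster of the knockout, at 2.31 CPM (interval 1.23 to 3.95), and in the Timp3 cluster of the control, at 3.06 CPM (2.32 to 3.96). The 19 knockout cells of the Fabp2 cluster had no Etv5 UMI, which allows up to 6.83 CPM. It was highest in the Prss56 cluster, at 158 CPM in knockout cells (145.3 to 171) and 100.2 CPM in control cells (87.2 to 115), a log2 ratio of 0.65 (interval 0.43 to 0.89). Knockout and control cells with an Etv5 UMI made up 49.4% and 40.8% of the thinned cells in this cluster, against 0.559% of knockout cells in the Clca4a cluster and 2.02% of control cells in the Timp3 cluster. The Prss56 cluster held 49.96% of the knockout and 23.4% of the control Etv5 UMIs.

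The Etv5 level was also higher in knockout cells of the Cxcl14 cluster, at 45.2 against 21.7 CPM in control cells (log2 ratio 1.06, interval 0.59 to 1.56). In the Slc16a3 cluster it stood at 37.6 CPM in knockout and 18.4 CPM in control cells (1.03, interval 0.64 to 1.41). In the cycling-like cluster it stood at 16.8 and 10.8 CPM (0.65, interval 0.23 to 1.05). Without shared barcodes the log2 ratios were 1.10 in the Cxcl14, 0.88 in the Slc16a3, 0.42 in the Prss56 and 0.19 in the cycling-like cluster, and in the last of these the interval included 0 (-0.38 to 0.73). In the Asprv1 cluster Etv5 was below the minimum in both libraries, at 4.05 and 3.82 CPM. The low-depth cluster, with 1 knockout and 11 control UMIs, gave no direction (-7.05 to 1.17).

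Spry2 took opposite directions in different clusters. It was higher in knockout cells of the cycling-like cluster, at 25.9 against 8.39 CPM in control cells, a log2 ratio of 1.63 (interval 1.25 to 2.01). In the Prss56 cluster it was higher at 55.5 against 32.9 CPM (0.75, interval 0.36 to 1.17). It was lower in knockout cells of the Slc16a3 cluster, at 5.01 against 15.3 CPM (-1.61, interval -2.60 to -0.76), on 12 knockout and 135 control UMIs. Without shared barcodes these ratios were 1.66, 1.12 and -1.73. In the Asprv1 (-0.17), Cxcl14 (0.33) and low-depth (-0.57) clusters the intervals included 0. Shares of thinned cells with a Spry2 UMI in the Asprv1 cluster did not follow its ratio. They were 9.72% of 422 knockout cells (7.06 to 12.9) and 1.85% of 54 control cells (0.05 to 9.89), with overlapping intervals. The ratio interval there does not cover variation between cells, so it does not show equal levels. The Clca4a cluster had 30.4 CPM of Spry2 in knockout and 19.0 CPM in its 35 control cells. With Etv5 higher and Spry2 lower in knockout cells of the Slc16a3 cluster, these feedback genes differed in opposite directions there.

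Dusp6 did not reach a difference of 1.5-fold in any of the 6 clusters. Its levels in the cycling-like cluster were 37.3 CPM in knockout and 50.5 CPM in control cells, a log2 ratio of -0.44 (interval -0.69 to -0.19). Without shared barcodes this ratio was -0.67 (-1.0 to -0.36), past 1.5-fold. Among clusters of 50 or more cells the highest Dusp6 levels were in the Prss56 cluster, at 117 CPM in knockout and 103 CPM in control cells (the 35 control cells of the Clca4a cluster had 105 CPM), and the lowest in the Slc16a3 cluster, at 27.6 and 33.5 CPM. Spry4 had 19 of its 32 knockout UMIs (59.4%) and 7 of its 15 control UMIs (46.7%) in the Prss56 cluster. Without shared barcodes 6 of 15 knockout UMIs and 6 of 13 control UMIs of Spry4 were in this cluster, at 2.79 and 3.05 CPM. Among clusters of 50 or more cells, Spry2, Etv5 and Dusp6 also had their highest levels there in both libraries, although the control level of Dusp6 in the Fabp2 cluster, 101 CPM, has an overlapping interval. Control Spry2 in the Prss56 cluster, 32.9 CPM (25.7 to 41.6), overlaps with 30.2 CPM in the Cxcl14 and 29.9 CPM in the Asprv1 cluster. After thinning, 14.1% of control cells in the Cxcl14 and 11.2% in the Prss56 cluster held a Spry2 UMI.

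Counts of genes past 1.5-fold also differed between clusters. In the cycling-like cluster 3 of 7 measured genes were higher and 1 was lower, where 7.53% of all measured genes were higher and 14.7% lower. In the Prss56 cluster 3 of 7 were higher and none lower, against 10.0% and 3.80%. In the Slc16a3 cluster 1 of 7 was higher and 2 were lower, against 5.35% and 7.84%. In the Asprv1 cluster 1 of 6 was higher and none lower, against 6.49% and 4.92%. In the Cxcl14 cluster 1 of 7 was higher and none lower, against 8.02% and 2.9%. In the low-depth cluster 1 of 7 was higher and 1 lower, where 21.4% and 28.5% of all measured genes passed the same size. These were Egfr, with 7 knockout and 13 control UMIs (-0.62 to 2.38), and Etv5, with 1 and 11 UMIs (-7.05 to 1.17). Both intervals include 0, so neither gives a direction. Without shared barcodes Etv5 no longer passed 1.5-fold in the cycling-like cluster and Dusp6 passed it downward there, while in the Prss56 cluster Hbegf and Etv5 no longer passed and Egfr passed upward.

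Ligand and feedback levels can be set against each other across the clusters. Areg and Etv5 ran in nearly opposite order, with a Spearman coefficient of -0.96 over 7 knockout clusters and -0.90 over 9 control clusters. The points are clusters that share a library, and the coefficients are descriptions. Over single thinned cells the coefficient was -0.21 in 1387 knockout cells and -0.11 in 2487 control cells, which is weak in counts this sparse. Areg and Spry2 gave -0.36 over the knockout and -0.82 over the control clusters. Spry2 and Dusp6 gave 0.96 over the knockout and 0.08 over the control clusters. These sets of clusters differ, and over the 6 clusters common to both libraries Spry2 and Dusp6 gave 1 in knockout and 0.83 in control cells. Over the same 6 clusters Areg and Etv5 gave -0.94 and -0.77, and Areg and Spry2 gave -0.54 and -0.77.

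**Figure D3:**
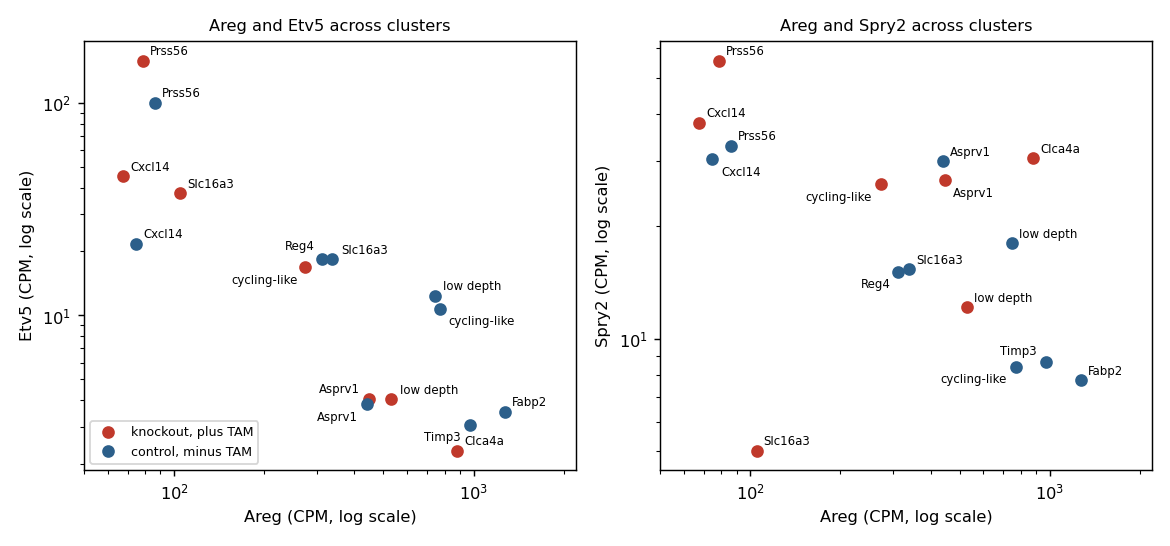
Areg (horizontal) against Etv5 (left panel) and Spry2 (right panel), in CPM on log axes, with 1 point per cluster of 50 or more cells in a library, knockout in red and control in blue. The Prss56 clusters of both libraries sit at low Areg and high Etv5, and the Clca4a, Timp3 and Fabp2 clusters at high Areg and low Etv5, while knockout cells of the Slc16a3 cluster are low in both Areg and Spry2.

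Whole-library ratios moved when control clusters were weighted by the knockout shares of clusters, which sets the composition equal. On that scale Areg stood at 373 CPM in the knockout and 455 CPM in the weighted control, a log2 ratio of -0.29 beside -0.86 unweighted. Spry2 had 30.1 CPM in the knockout and 24.2 CPM in the weighted control (log2 ratio 0.31 beside 1.24). Tgfa had 31.2 and 25.4 CPM (0.29 beside 0.72). Egfr had 21.4 and 13.1 CPM (0.71) and Etv5 31.8 and 19.0 CPM (0.74), both past 1.5-fold. Hbegf gave 0.39 and Dusp6 0.04. These sizes depend on the clustering. With Leiden resolution 0.5, resolution 1.2 and the pathway genes kept for clustering, in this order, Areg gave -0.48, -0.22 and -0.37. Under the same 3 settings Tgfa gave 0.70, 0.48 and 0.46, so that it passed 1.5-fold under the first of them. Egfr gave 0.39, 0.71 and 0.44 and passed under resolution 1.2 alone, Spry2 gave 0.43, 0.13 and 0.54 and did not pass, and Etv5 gave 0.62, 0.77 and 0.61 and passed under all 3. Dusp6 gave -0.08, 0.18 and close to 0. Some weights rest on few control cells, among them the 35 control cells of the Clca4a and the 55 of the Asprv1 cluster. The Asprv1 cluster held 31.7% of the knockout UMIs, which is its weight. Its control Spry2 level of 29.9 CPM came from 47 UMIs in 55 cells, and 1 of 54 thinned cells held a Spry2 UMI. The weighted Spry2 ratio of 0.31 therefore rests in part on a level that few thinned control cells carried.

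**Figure D4:**
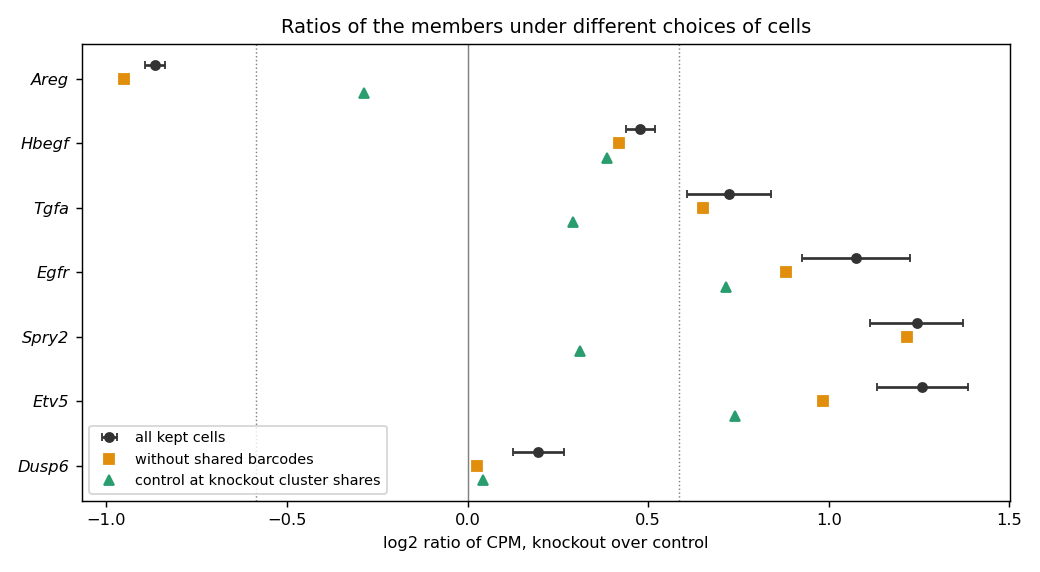
Log2 ratios (knockout over control) of the 7 measured genes over all kept cells (black, exact 95% intervals), without shared barcodes (orange squares) and with control clusters weighted by knockout shares (green triangles). Dotted lines mark 1.5-fold. Areg lies at -0.86 over all cells and at -0.29 with weighted clusters, and Spry2 at 1.24 and 0.31.

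The other genes of the route were read from a list of 67 genes in 8 roles. Of these, 41 were measured, 4 were higher in knockout cells by 1.5-fold or more, 3 were lower and 34 were neither, with a median log2 ratio of 0.06. Over all 7912 measured genes 8.06% were higher and 10.7% lower by that size, so these counts do not set the list apart. With the control clusters weighted by knockout shares, no measured gene of the list passed 1.5-fold in either direction. The share of all measured genes past 1.5-fold under this weighting is not given, so this is no result about the list. Btc, which encodes the ligand betacellulin, was the single measured gene among 6 other EGF family ligands, at 37.8 CPM in the knockout and 42.8 CPM in the control library. All 5 genes of ligand shedding and trafficking were measured and none passed 1.5-fold. Adam10, a protease that releases EGF family ligands, stood at 45.5 and 32.7 CPM (log2 ratio 0.48), and Adam17, the main protease for amphiregulin and TGF alpha, at 11.6 and 10.6 CPM (0.14, interval -0.04 to 0.31). Of the other receptors of the family, Erbb3 stood at 18.7 CPM in knockout and 13.8 CPM in control cells (0.44) and Erbb2 at 18.3 and 19.1 CPM (-0.06), and Erbb4 had no UMI in either library.

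Among receptor inhibitors, 4 of 8 were measured. Lrig1, which promotes the degradation of ERBB receptors and marks intestinal stem cells, was lower at 5.94 CPM in the knockout and 10.4 CPM in the control library (log2 ratio -0.81, interval -1.04 to -0.59). Cbl, a ubiquitin ligase of the active receptor, stood at 17.9 and 12.8 CPM (0.48), and Errfi1, an inhibitor of the EGFR kinase that ERK signalling raises, at 168 and 128 CPM (0.38). In the cascade from adaptors through RAS to ERK, 12 of 16 genes were measured with a median of -0.00192. Hras was the single gene past 1.5-fold, at 86.6 CPM in the knockout and 142 CPM in the control library (-0.72), while Map2k1, which encodes the ERK kinase MEK1, stood at 86.9 and 62.9 CPM (0.47). The RAS GTPase activators were all measured without a call, and Nf1 (neurofibromin) had the largest ratio, at 18.7 and 12.8 CPM (0.55).

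Of 19 other feedback and ERK output genes, 13 were measured, 3 were higher and 1 was lower, with a median of 0.38. Over all measured genes 8.06% were higher and 10.7% lower. Ccnd1, the cyclin D1 gene, stood at 284 CPM in the knockout and 555 CPM in the control library (log2 ratio -0.97, interval -1.0 to -0.94), the largest difference in size among the 41 measured. Spred2, a relative of the Sprouty genes that holds back RAF activation, stood at 16.2 and 9.15 CPM (0.82), and Fosl1, an AP-1 subunit gene that ERK raises, at 89.2 and 52.1 CPM (0.78). Dusp5, an ERK phosphatase of the nucleus, which was named after its value was seen, stood at 75.3 and 47.8 CPM (0.66). Spry1, at 34.5 and 38.1 CPM (-0.15), and Etv4, at 19.6 and 19.0 CPM (0.04), did not pass 1.5-fold. They too were named after their values were seen. Of 7 other receptor tyrosine kinases Igf1r alone was measured, at 14.4 CPM in knockout and 7.87 CPM in control cells (0.87). Cycling markers summed to 820 CPM in the knockout and 1251 CPM in the control library, and their part in the Ccnd1 difference was not tested.

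**Figure D5:**
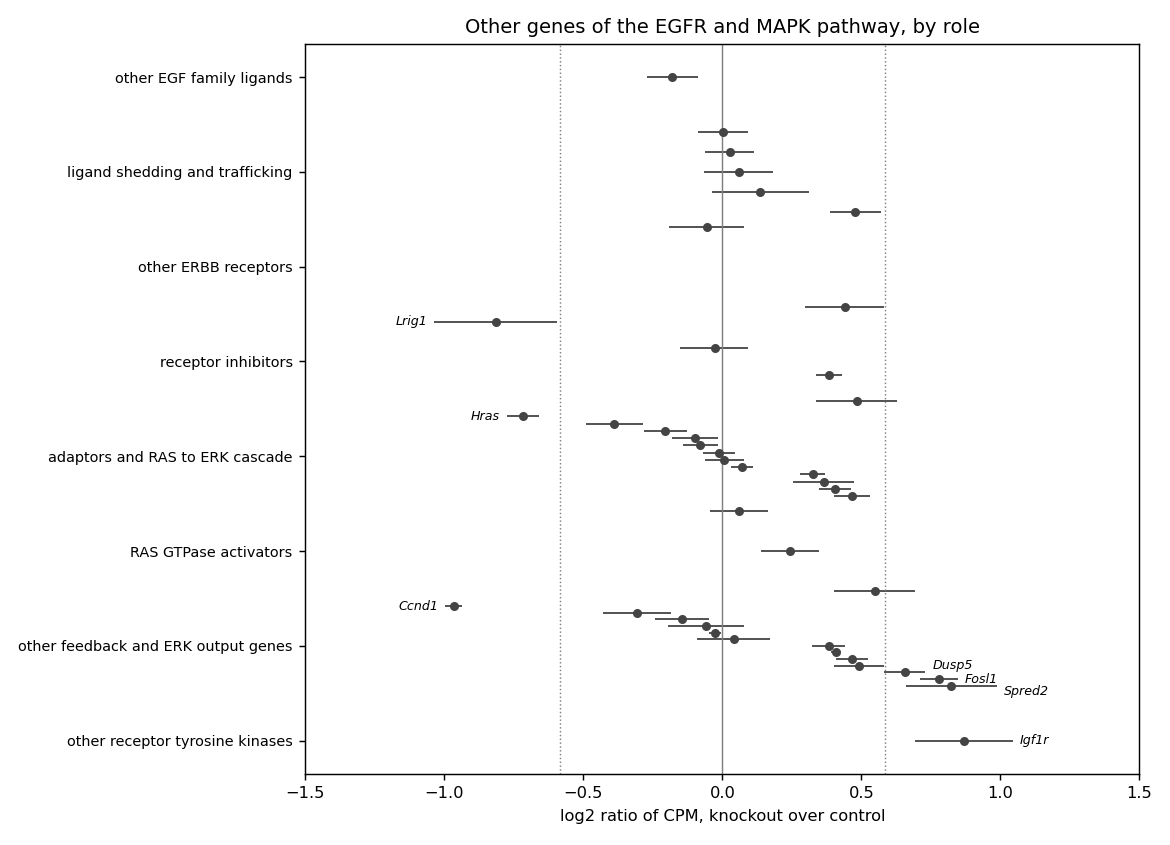
Log2 ratios (knockout over control) of the 41 measured genes among 67 other pathway genes, grouped by role, with exact 95% intervals for counting error. Dotted lines mark 1.5-fold, and the 7 genes past them are named. Most points lie between the lines, with Ccnd1 at -0.97 and Igf1r at 0.87 farthest out.

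The genes most like each measured gene were ranked over 12 profiles (6 clusters in each library) among 3228 genes by Spearman coefficient. For Areg they were Eif2b2 (0.97) and B4galt6 (0.94), for Hbegf Lypd6b (0.96) and Tsc22d1 (0.93), and for Tgfa Mgea5 (0.98) and Tnks2 (0.97). For Egfr they were Pabpn1 (0.94) and Csnk1g2 (0.94), for Etv5 Nipa2 (0.98) and Rnf149 (0.97). Gabarapl1 (0.91) came up for both Spry2, with Naxd (0.90), and Dusp6, with Rab22a (0.97). The ranking held only genes at 50 CPM or more in at least 1 library. Of the 10 genes only Areg, Hbegf and Dusp6 reached that level, and none of them ranked among the nearest genes of another. The highest coefficient between measured members over the same profiles was 0.88, for Spry2 and Dusp6. The nearest genes were picked as the highest of 3228 coefficients over 12 profiles that repeat the same 6 clusters. Such a choice gives high coefficients by itself, so these pairs are descriptions, and shared expression was not tested.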

How the data were processed

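Single cells were profiled with 10x Chromium 3′ chemistry v2, per the labels' protocols. The authors deposited UMI counts per gene and cell, 1 matrix for each group. Per the file headers the counts come from Cell Ranger 3.1.0, and per the submitters' processing notes the genome was mm10. The counts were whole numbers and not normalized. The sources used here name neither the annotation release nor whether counting used strand. Of 31053 gene identifiers 30934 were found in GENCODE M21, which gave positions, lengths and overlaps. Day 5 stands only in names of the deposited tables.

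The knockout matrix held 2078 barcodes and the control matrix 3618. A minimum of 1000 genes and of 2000 UMIs and a maximum of 20% mitochondrial UMIs left 1499 knockout and 2687 control cells. Scrublet, as included in scanpy 1.11.5, marked only 4 and 1 of them, and instead the top-scored cells were dropped, 0.8% per 1000 cells, which were 18 knockout and 58 control cells. Within a library or cluster, the counts of kept cells were added up and scaled to CPM, with no pseudocount. A ratio is knockout over control, 1.5-fold is a size threshold and not a test, and a library with no UMI takes a floor of 3 counts when the other has more than 3. Exact 95% intervals came from the Poisson distribution for CPM, from the binomial distribution given the sum of both counts for ratios, and from Clopper and Pearson for shares. They hold counting error alone. Ratios and intervals were tested on simulated Poisson counts, the model that the intervals assume. That test cannot cover variation between cells, cultures or libraries.

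Clustering used counts scaled to 10000 per cell and log-transformed, 30 principal components of 2000 variable genes, a graph of 15 neighbours and the Leiden method at resolution 0.8 without integration, leaving out the genes described and the other pathway genes. Versions were scikit-learn 1.9.0, igraph 0.11.9 and leidenalg 0.10.2. A cluster was named when 3 or more markers of a class exceeded the rest of the cells 2-fold at 10 CPM or more, with 2 or more among its 10 leading genes, numbers that were set after the data were seen. Named genes are all members, N6amt1, up to 3 pathway genes per role with the largest ratios, up to 3 leading genes per cluster at 50 CPM or more, and the 2 genes most like each measured member. Members and lists were chosen with earlier results of these data known. Alternatives covered cell filters, doublets, shared barcodes, scaling (trimmed mean factors from edgeR 4.0.16, median of ratios), minimum levels, thinning, composition and clusters left out.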

Additional observations from a re-analysis of the deposited data

Results flagged for a closer look

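The Spry2 ratio of knockout to control pointed in opposite directions in different cell clusters. Its log2 ratio was 1.63 in the cycling-like cluster and 0.75 in the Prss56 cluster, but -1.61 in the Slc16a3 cluster. The intervals for counting error of all 3 exclude 0, and the difference between the clusters was not tested, since each group has 1 library.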

How the results depend on the processing

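Over up to 30 settings none of the log2 ratios of single genes that reached 1.5-fold changed sign. They ranged from -1.25 to -0.27 for Areg, 0.14 to 0.85 for Tgfa, 0.59 to 1.31 for Egfr, 0.31 to 1.39 for Spry2 and 0.61 to 1.73 for Etv5. These ranges use 1 clustering for the weighting, and other clusterings are given in the report. Hbegf ranged from 0.30 to 0.59, and Dusp6 from -0.04 to 0.34, with the sign of its main value under 29 of 30. With control clusters weighted by knockout shares, 2 of the 10 genes were higher (4 over all cells) and 0 lower (1 over all cells), and 0 pathway genes were higher and 0 lower (4 and 3 over all cells). Without shared barcodes the same weighting, chosen after seeing the data, gave 2, 0, 0 and 0. At 2-fold 0 of the 10 genes were lower, and 0 pathway genes were higher or lower. A minimum of 50 CPM left 0 of the 10 genes higher and 2 pathway genes higher, and a minimum of 5 CPM gave 7 pathway genes higher. With no minimum 2 of the 10 genes were lower, and 10 pathway genes were higher and 5 lower. Counting every interval that excludes 0 gave 19 pathway genes higher and 11 lower, and thinning to 5000 UMIs gave 7 higher. Shares over all measured genes under these changed settings are not given, so the counts are no results about the lists. The ligand median (0.48) was 0.42 without shared barcodes, 0.44 with median-of-ratios scaling, 0.44 as a mean of CPM per cell, 0.39 after thinning and 0.29 with weighted clusters. It was 0.54 without colonocyte-like cells, 0.42 without the Asprv1 cluster, 0.52 without the Clca4a cluster, 0.59 relative to genes of like length and 0.14 with weighted clusters and no shared barcodes. The feedback median (1.24) was 0.99 without shared barcodes, 1.09 after thinning and 0.31 with weighted clusters. It was 0.90 without the Timp3 cluster and 0.75 without the Prss56 cluster. Chosen after seeing the data, it was 1.01 without shared barcodes and colonocyte-like cells and 0.32 with weighted clusters and no shared barcodes. The other 163 values of counts and medians stayed within their limits, and the causes of these shifts were not tested. No paired analysis was possible because each group has 1 matrix, and no replicate could be left out. Ereg, Epgn and Spry4 rest on at most 32 UMIs in a library, so their depth limits any ratio.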
